A study of Mus musculus with 5 samples.

Results

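The respiratory chain and ATP synthase genes were examined for Runx3 binding in D1, a line of dendritic cells that originated in mouse spleen. Members were chosen by name from the GENCODE vM1 annotation of the mouse genome build mm9: protein-coding autosomal genes starting with Nduf, Uqcr, Atp5, Cox4, Cox5, Cox6, Cox7 or Cox8, together with Sdha, Sdhb, Sdhc and Sdhd. This rule gave 88 genes of the 21275 protein-coding genes on the 19 autosomes. The rule uses no measured value. They comprise 36 genes counted by name as subunit genes of complex I, and 4 assembly factors of that complex. The others are 4 genes of complex II, 8 of complex III, 16 of complex IV, 15 of ATP synthase, and 5 further genes that share the names without being counted as subunits here.

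Chromatin of cultured D1 cells was immunoprecipitated with a polyclonal rabbit antibody against Runx3 in 3 libraries and with rabbit non-immune serum (NIS) in 2 control libraries. The labels name no mutation, dose or time, and the cells are a single line. The antibody is the only difference between the groups that the labels name, and they give no batch or pairing. The authors deposited 1 list of 13014 peaks called on pooled tags, 8689867 from Runx3 IP and 4946605 from NIS after removal of duplicates. Which libraries were pooled is not stated, so the spread between replicates could not be measured, no test between conditions was possible, and the intervals given here cover counting error only. Expression was not measured, so the cell type could not be compared with its markers and no level of any respiratory gene is known from these data.

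The respiratory chain lies in the inner mitochondrial membrane. Complex I takes electrons from NADH and complex II from succinate, complex III passes them to cytochrome c and complex IV passes them to oxygen. Complexes I, III and IV pump protons, and ATP synthase uses the returning protons to make ATP. A few subunits are encoded by mitochondrial DNA and are not members here, while the others are encoded in the nucleus, where the ETS factor GABP (also called NRF2), NRF1 and YY1 are known to act at many of their promoters. Runx3 is a transcription factor that binds a short DNA core, TGTGGT or TGCGGT, and is known for its roles in lymphocytes and dendritic cells. Dendritic cells are known to shift between respiration and glycolysis when they are activated.

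Sequences at 8 of the 11 summits that held a RUNX core are given first, to show the core and its surroundings, and were chosen for holding it. The other 15 summits held none. Each sequence is read 5′ to 3′ on the strand of the respiratory gene, and capitals mark the RUNX core nearest the summit, which appears as TGTGGT or TGCGGT or, read from the other strand, as ACCACA or ACCGCA. Stretches inside an untranslated region (UTR) are limited to 30 bases. Positions are those of mm9.
Ndufs7, promoter, chr10:79712110-79712139, plus strand: aaccactcggctTGTGGTgcgggtttccgc
Atp5g1, upstream, chr11:95939416-95939521, minus strand: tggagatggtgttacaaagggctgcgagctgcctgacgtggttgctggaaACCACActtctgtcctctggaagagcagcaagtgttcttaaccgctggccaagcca
Cox5a, intron, chr9:57372400-57372505, plus strand: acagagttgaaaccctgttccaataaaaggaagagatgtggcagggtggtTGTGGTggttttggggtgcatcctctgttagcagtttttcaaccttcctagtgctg
Ndufb10, downstream of the start and at the start of Rps2, chr17:24856956-24856985, minus strand: gcacccgcaggcTGTGGTtggctgcgtctt
Ndufa9, upstream and in an intron of Akap3, chr6:126803269-126803371, minus strand: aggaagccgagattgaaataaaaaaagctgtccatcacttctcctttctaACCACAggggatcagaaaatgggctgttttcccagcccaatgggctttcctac
Ndufs8, promoter, chr19:3912718-3912798, minus strand: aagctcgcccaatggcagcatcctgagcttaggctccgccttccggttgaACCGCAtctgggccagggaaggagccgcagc
Ndufa4, upstream, chr6:11857902-11858007, minus strand: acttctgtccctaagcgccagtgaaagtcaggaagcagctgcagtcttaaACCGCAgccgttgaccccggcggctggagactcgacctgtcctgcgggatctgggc
Cox5a, promoter, chr9:57368915-57369020, plus strand: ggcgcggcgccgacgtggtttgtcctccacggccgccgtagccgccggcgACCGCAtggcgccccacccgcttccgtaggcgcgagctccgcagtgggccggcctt

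Some of the other promoter summits carried the core of ETS factors, CCGGAAG, which reads CTTCCGG from the other strand, and no RUNX core. These 3 were chosen for that and are shown for comparison with the first set, with the ETS core in capitals.
Ndufb9, promoter, chr15:58765286-58765364, plus strand: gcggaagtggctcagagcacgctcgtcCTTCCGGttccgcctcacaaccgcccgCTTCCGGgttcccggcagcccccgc
Cox6b1, promoter, chr7:31411144-31411173, minus strand: ctcctctcgcagCTTCCGGccagtcggaat
Cox4i1, promoter shared with Cox4nb, chr8:123192119-123192189, plus strand: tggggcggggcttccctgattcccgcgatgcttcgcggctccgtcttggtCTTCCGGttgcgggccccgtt

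A member was counted as carrying a peak when a summit lay within 5 kb of the transcription start site (TSS) of any of its protein-coding transcripts. Of the 88 genes, 22 carried a peak (25%, 95% Wilson interval 17.1 to 35.0). Among all autosomal protein-coding genes the share was 22.3%, 4737 genes, and lay inside that interval. Within 1 kb the count was 18 members (20.5%, 13.3 to 30.0) against 16.5% of all genes, again inside the interval. The counts therefore read near the background of the list. The 22 genes were reached by 26 peaks of the 13014, and 1 of these peaks served Cox4i1 and Cox4nb together.

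By complex, 11 of 36 complex I subunit genes carried a peak (30.6%, 18 to 46.9), 1 of 4 complex II genes, 0 of 8 complex III genes (upper limit 32.4%), 5 of 16 complex IV genes (31.2%, 14.2 to 55.6) and 3 of 15 ATP synthase genes (20%, 7.05 to 45.2). None of the 4 Ndufaf assembly factor genes and 2 of the 5 further name matches, Atp5sl and Cox4nb, carried one. Each of these intervals contained the 22.3% of all genes.

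**Figure D1:**
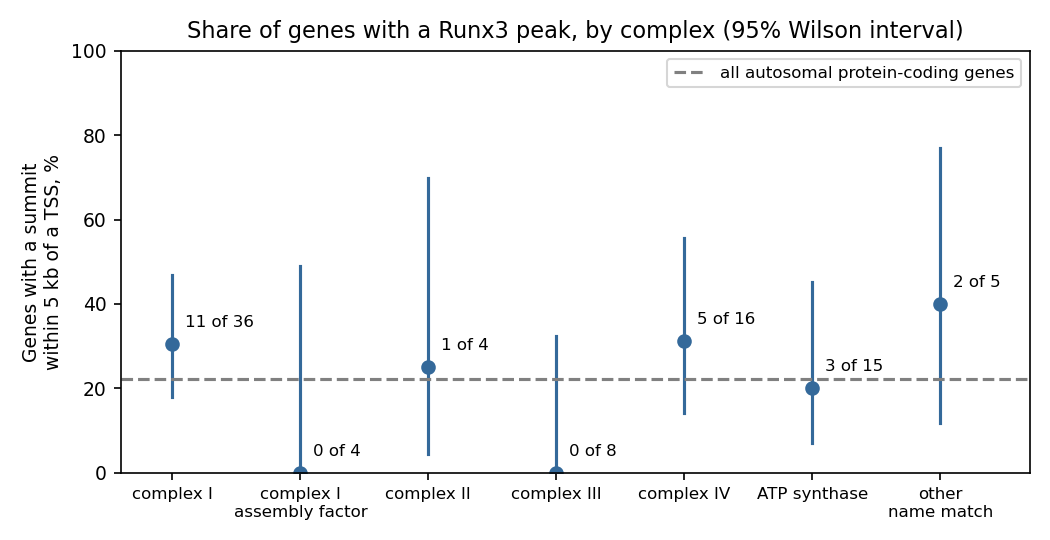
Percent of genes with a Runx3 summit within 5 kb of a TSS, by complex; points are the shares, bars their 95% Wilson intervals, and the dashed line the 22.3% of all autosomal protein-coding genes. The dashed line crosses the interval of each of the 7 groups, from 0 of 8 genes for complex III to 11 of 36 for complex I.

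For each peak the deposited fold enrichment is the scaled number of Runx3 fragments at the summit plus 1, over the NIS background plus 1. A value of 10 thus means 10 times the control after this offset. Over the 26 peaks the background ran from 0.314 to 2.00, where 1 is 1 NIS fragment, so it rests on few control fragments. Its minimum of 0.314 and lower quartile of 0.315 were the same over the whole list, a shared level rather than a local count. Fragments are the whole Runx3 fragments that cover the summit. The 26 peaks had a median fold of 7.24 (95% interval of the median 6.03 to 8.99, range 4.77 to 15.5), beside 7.69 for the 5206 peaks within 5 kb of any gene and 8.12 for the whole list. Their median was 15.5 fragments, from 11 to 38, beside 18 near any gene.

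The strongest peak belonged to Ndufs7 (ENSMUSG00000020153.8), a core subunit of complex I that holds the last iron-sulfur cluster before ubiquinone. It was 440 bp wide, on chromosome 10 from 79711892 to 79712331, with 38 Runx3 fragments at the summit (exact Poisson interval 26.9 to 52.2) over a background of 0.464. The fold was 15.5 (11.1 to 21.0), the −log10 q 23.9 and the rank by fold 899 of 13014. The summit lay 54 bp before the nearest TSS of Ndufs7, in the 5′ UTR of a longer transcript, and 3 RUNX cores lay within 100 bp of it. The one closest to the summit is the TGTGGT printed above, 75 bp before that TSS.

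Ndufs8, the other core subunit gene with a peak, encodes a carrier of iron-sulfur clusters next to Ndufs7 in the electron path. Its promoter held a pair of peaks on chromosome 19, from 3912623 to 3912808 with 19 fragments and a fold of 8.63 (5.49 to 13.1), and from 3912892 to 3913124 with 15 fragments and a fold of 7.03. The summits lay 14 bp and 280 bp before the TSS, 266 bp from each other. The first held a TGCGGT core together with an ETS core and a CCAAT box, and the second held a YY1 core, AAGATGG, and no RUNX core. Other core genes, such as Ndufs1, Ndufs3, Ndufv1 and Ndufv2, had no peak within 5 kb.

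Peaks lay near 9 of the 29 other complex I subunit genes (31.0%, 17.3 to 49.2), most of which encode accessory subunits around the catalytic core. By the start of the name, over all 36 complex I genes, the counts were 4 of 14 for Ndufa, 4 of 9 for Ndufb and 0 of 2 for Ndufc. They were 3 of 8 for Ndufs, the core genes Ndufs7 and Ndufs8 included, and 0 of 3 for Ndufv. Among the 9 genes outside the core, the higher peaks often sat beside another gene. Near Ndufb10 the peak (chromosome 17, 24856806 to 24857074) had 30 fragments and a fold of 11.3 (7.85 to 15.9), but its summit was 4397 bp downstream of the Ndufb10 TSS and 48 bp from the TSS of Rps2, a ribosomal protein gene. Near Ndufa9 the peak (chromosome 6, 126803215 to 126803443) had 37 fragments and a fold of 11.03 (7.92 to 15.0), with its summit 4153 bp upstream of Ndufa9 and 199 bp from a TSS of Akap3, which encodes a sperm scaffold protein. Near Ndufa2 the peak had 19 fragments and a fold of 8.99 (5.71 to 13.6), with its summit 4638 bp upstream and in an intron of Ik. The distance rule alone assigned these 3 peaks to a respiratory gene.

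At Ndufb9 (chromosome 15, 58765248 to 58765396) the peak had 22 fragments and a fold of 10.2 (6.70 to 15.1). Its summit lay 72 bp before the Ndufb9 TSS and 8 bp from that of Tatdn1, which is transcribed the other way. At Ndufb3 (chromosome 1, 58643021 to 58643186) the peak had 21 fragments and a fold of 9.55 (6.19 to 14.2), 139 bp before the Ndufb3 TSS and 21 bp from that of Fam126b. Both promoters thus face a neighbour, and neither summit held a RUNX core.

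The remaining complex I peaks were lower. Ndufa13, also known as GRIM-19 for its part in cell death, carried a pair of peaks on chromosome 8. The stronger (72425526 to 72425650) had 14 fragments and a fold of 6.82, with its summit 846 bp after the TSS. The weaker (72426641 to 72426759) had 11 fragments and a fold of 5.52, with its summit 249 bp before the TSS and inside a coding exon of Tssk6. Ndufb7 had a pair of summits only 110 bp apart on chromosome 8, with 12 fragments and a fold of 5.96 (86090663 to 86090887), and with 16 fragments over a higher background of 1.00 and a fold of 5.05 (86090495 to 86090613). The second had more fragments and the lower fold, since its control was higher. Ndufa4 was counted with complex I by its name, although its protein was later found with complex IV. Moving it there, a choice made after seeing the data, gave 10 of 35 genes for complex I (28.6%, 16.3 to 45.1) and 6 of 17 for complex IV (35.3%, 17.3 to 58.7). Both intervals still contained 22.3%. Ndufa4l2, which shares its name and carried no peak, was left with complex I. Ndufa4 had a peak of 13 fragments and a fold of 6.39 (chromosome 6, 11857762 to 11858019), 482 bp before its TSS. Ndufs5 had the lowest fold of all the members' peaks, 4.77 (2.89 to 7.54) with 15 fragments over a background of 1.00 and a −log10 q of 2.83 (chromosome 4, 123395398 to 123395520), 56 bp before its TSS, and ranked 12726 of 13014.

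In complex II the one peak was at Sdha, the flavoprotein that oxidises succinate. It had 11 fragments and a fold of 5.35, on chromosome 13 from 74487478 to 74487756, with its summit in an intron 184 bp after the TSS. Sdha and Ccdc127 start 29 bp apart on opposite strands. Sdhb, Sdhc and Sdhd had no peak.

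Complex IV peaks were at Cox4i1, Cox5a, Cox6b1, Cox7a2 and Cox7c, which encode nuclear subunits around the catalytic core. Cox5a carried a pair of peaks 3482 bp apart on chromosome 9. The peak in its intron, 3414 bp after the TSS (57372362 to 57372571), had 27 fragments over a background of 0.357 and a fold of 12.1 (8.20 to 17.2). The peak at its promoter, 68 bp before the TSS (57368879 to 57369452), was the widest of the 26 at 574 bp and had 30 fragments over a background of 2.00, giving a fold of 6.03 (4.17 to 8.46). Fragment numbers at the pair of summits were thus close, while the control at the promoter was higher.

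Cox6b1 had 17 fragments and a fold of 8.08 (chromosome 7, 31411141 to 31411332), 62 bp before its TSS. Cox7c had 13 fragments and a fold of 6.39 (chromosome 13, 86186368 to 86186486), 47 bp after its TSS. Cox7a2 had 12 fragments and a fold of 5.96 (chromosome 9, 79607377 to 79607771), 23 bp before its TSS. The summit shared by Cox4i1 and Cox4nb had 12 fragments and a fold of 5.77 (chromosome 8, 123192110 to 123192250), 15 bp before the first and 163 bp before the second. Cox4nb, which encodes a subunit of the ER membrane protein complex, is named for this neighbour and is no respiratory subunit.

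The 7 complex IV genes listed as tissue isoforms (Cox4i2, Cox6a2, Cox6b2, Cox7a1, Cox7b2, Cox8b and Cox8c), known mainly from lung, muscle or testis, carried no peak (0 of 7, upper limit 35.4%), against 5 of the other 9 genes (55.6%, 26.7 to 81.1). The intervals overlapped, and the interval for the other 9 began above the 22.3% of all genes. The groups also differed in the ratio of observed to expected CpG around the TSS. It ran from 0.245 to 0.468 in the 7 tissue isoforms and from 0.669 to 0.972 in the other 9. The median was 0.565 for all genes and 0.748 for all genes with a peak, so the 22.3% comes from genes of both kinds. These groups were set apart with earlier results known, and neither the difference nor the part of CpG content in it was tested.

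In ATP synthase, Atp5a1 encodes the alpha subunit of the catalytic F1 head and was the only one of its 5 F1 genes with a peak. It had a pair of peaks at its start, each with 15 fragments, with folds of 7.25 and 7.22 and summits 253 bp apart. One held an ETS core, the other a TGTGGT core. Of the 3 genes for the proton-carrying subunit c, whose mature proteins are the same, Atp5g1 and Atp5g2 had a peak and Atp5g3 had none.

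The peak of Atp5g1 (chromosome 11, 95939380 to 95939530) had 27 fragments and a fold of 12.5 (8.46 to 17.8), the second strongest of the members' peaks. Its summit was 2461 bp upstream, in intergenic sequence, with a TGTGGT core and a CCAAT box. The peak of Atp5g2 (chromosome 15, 102501489 to 102501666) had 15 fragments and a fold of 7.25, 71 bp before its TSS, and was the only one of the 26 with an NRF1 site, GCGCATGCG. Atp5sl, named for its likeness to another gene of this family, had 16 fragments and a fold of 7.69 (chromosome 7, 26404419 to 26404554) with its summit 36 bp after the TSS, in the first coding exon.

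**Figure D2:**
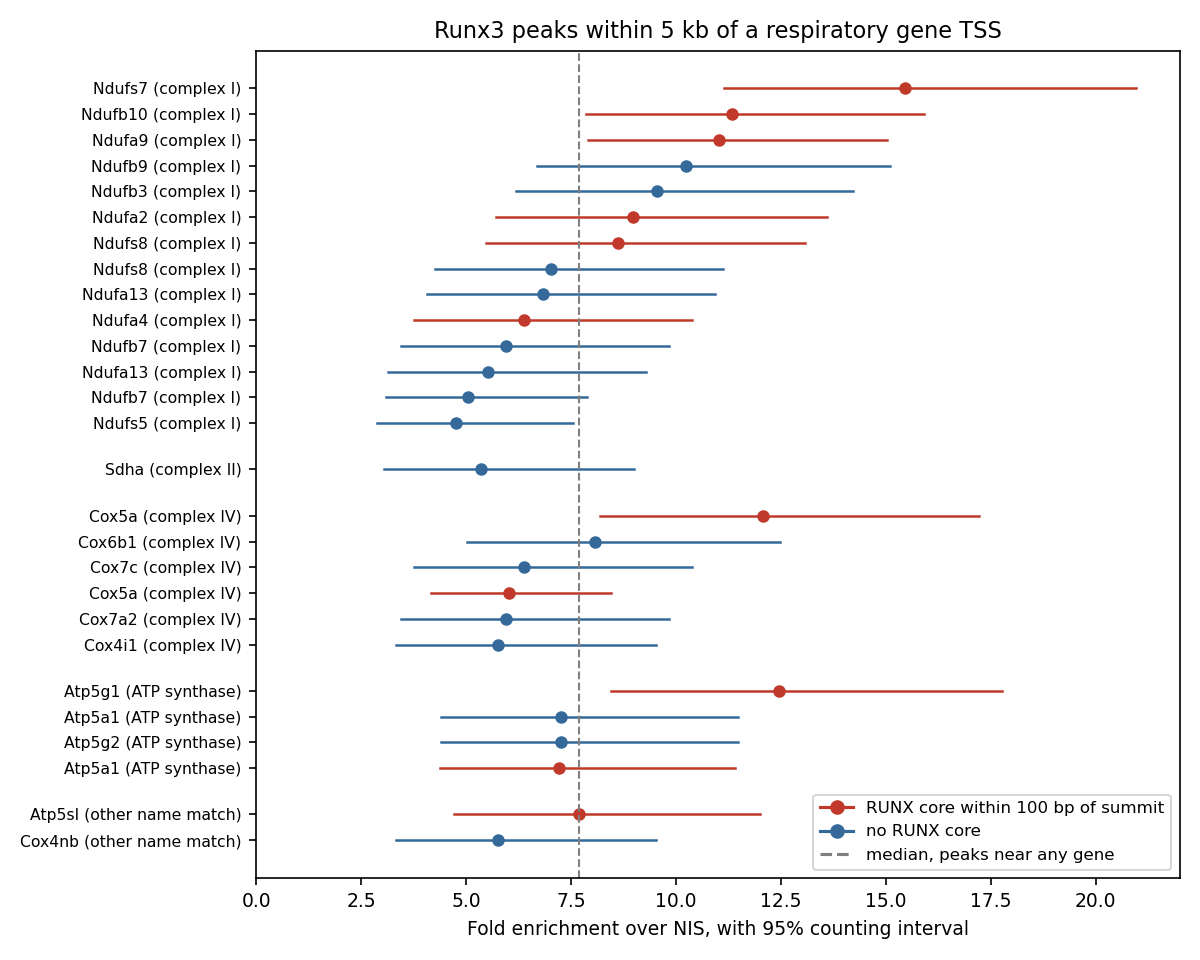
Fold enrichment over NIS of each peak within 5 kb of a member's TSS, 1 row per gene and peak, ordered by fold within each complex. Bars are 95% counting intervals of the Runx3 fragments, with the NIS background taken as exact. Red marks a RUNX core within 100 bp of the summit, and the dashed line is the median of peaks near any gene, 7.69. Ndufs7 stands highest at 15.5, and the shared peak of Cox4i1 and Cox4nb appears in both rows at 5.77.

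Most of the 26 summits lay close to start sites. Their distances were taken to a member's TSS, while those of peaks near any gene were taken to the closest TSS of any autosomal gene. The measures are therefore unlike, and a member peak closer to another gene was counted at its longer distance. The median distance was 71.5 bp (95% interval 54 to 280), beside 258 bp for peaks near any gene, which the interval contained. Within 100 bp of a member's TSS were 14 of 26 (53.8%, 35.5 to 71.2) beside 35.0%, within 250 bp 18 (69.2%, 50.01 to 83.5) beside 49.6%, and within 1 kb 21 (80.8%, 62.1 to 91.5) beside 69.1%. The interval for 100 bp began just above the share of all peaks near genes, as did that for 250 bp, and that for 1 kb contained it. The nearest TSS of any protein-coding gene was a member's in 20 of 26 peaks (76.9%). By annotation, 9 summits fell in a 5′ UTR, 2 in a coding exon, 5 in an intron and 10 between genes.

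Fold differed with distance from the member's TSS. The 21 summits within 1 kb had a median fold of 6.82 (5.96 to 7.69), beside 7.45 at 3596 such peaks of all genes. The 5 farther summits, near Atp5g1, Cox5a, Ndufb10, Ndufa9 and Ndufa2, had folds from 8.99 to 12.5 with a median of 11.3. All 5 held a RUNX core. Farther here means from the member: the Ndufb10 summit was 48 bp from the TSS of Rps2 and the Ndufa9 summit 199 bp from that of Akap3. Fold was not counted for peaks of all genes beyond 1 kb, so these folds have no background beside them. A core lay at 2875 of the 5206 peaks within 5 kb of any gene and at 1770 of the 3596 within 1 kb. Those are 55.2% and 49.2%, so cores were also more frequent at the farther peaks of all genes. Apart from Ndufs7 and Ndufb9, each peak with a fold of 10 or more was over 1 kb from its member's TSS.

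**Figure D3:**
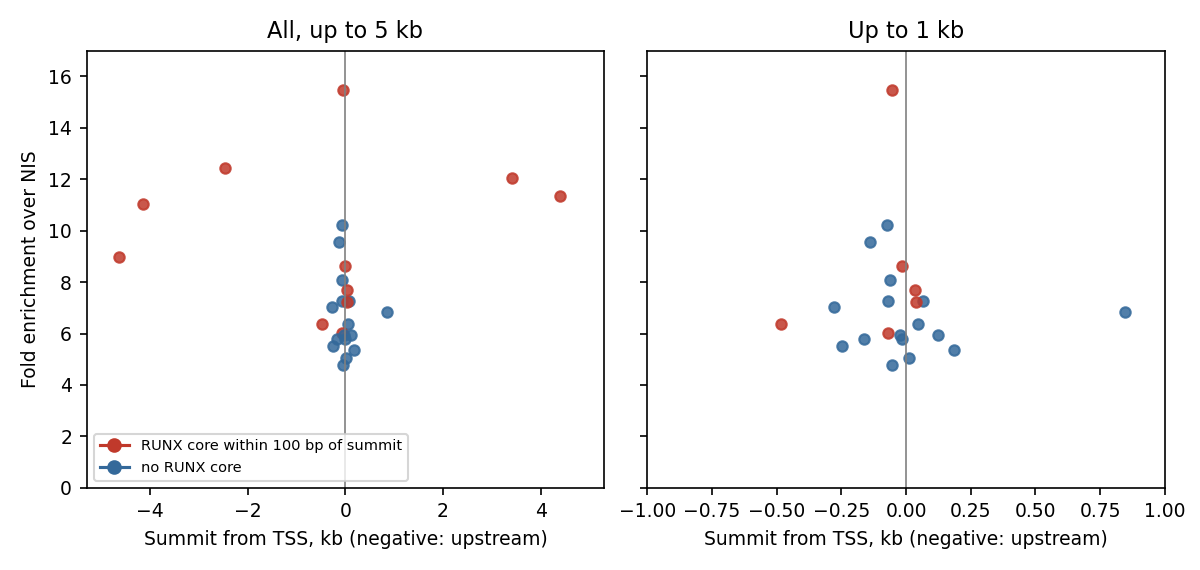
Fold enrichment over NIS against the distance of the summit from the nearest TSS of the member, in kb, with all gene and peak pairs on the left and those up to 1 kb on the right; red marks a RUNX core within 100 bp of the summit. The 5 summits beyond 1 kb lie between 8.99 and 12.5, and most of those at the start sites lie below 8.99.

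A RUNX core (TGTGGT or TGCGGT, either strand) lay within 100 bp of 11 of the 26 summits (42.3%, 25.5 to 61.1), beside 55.2% of peaks near any gene and 64.2% of the list. Equal windows 1 kb to the left and to the right of the summits held one at 4 (15.4%) and 5 (19.2%) peaks, beside 16.4% and 16.3% near any gene. For the 21 summits within 1 kb of a member, these windows held one at 4 (19.0%) and 3 (14.3%). At those summits themselves 6 held one (28.6%, 13.8 to 49.96), an interval that contained both shares. The core nearest the summit was TGTGGT in 7 peaks and TGCGGT in 4, and its centre was at most 26.5 bp from the summit, with a median of 14.5 bp. Peaks with a core had a median fold of 8.99 (n = 11) and those without 6.39 (n = 15), beside 8.18 and 7.23 near any gene. Of the 6 peaks with a fold of 10 or more, 5 held a core, and of the other 20, 6 did.

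At start sites the shares of ETS and YY1 cores were above those of all such peaks, which was not tested. Of the 21 summits within 1 kb, 6 held a RUNX core (28.6%, 13.8 to 49.96), beside 49.2% of all peaks within 1 kb of a gene, and 2 held TGTGGT (9.52%, 2.65 to 28.9), beside 25.3%. The ETS core CCGGAAG lay at 8 (38.1%, 20.8 to 59.1), beside 15.0%, and the YY1 core AAGATGG at 4 (19.0%, 7.67 to 40.0), beside 5.20%. The CCAAT box, bound by NF-Y, lay at 2 (9.52%), beside 21.7%, and the NRF1 site GCGCATGCG at 1 (4.76%), beside 2.03%. The intervals for the ETS and YY1 cores began above the share of all such peaks, and the others contained it. The Ndufb7 summits share 1 ETS match, and with overlapping windows counted once, a choice made after seeing the data, the ETS core lay at 7 of 20 (35%, 18.1 to 56.7), beside 14.95%. These are matches of letters and not sites shown to be bound. Both a RUNX and an ETS core lay at 2 of the 26 summits, with no overlap of the matches, and 8 held neither.

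**Figure D4:**
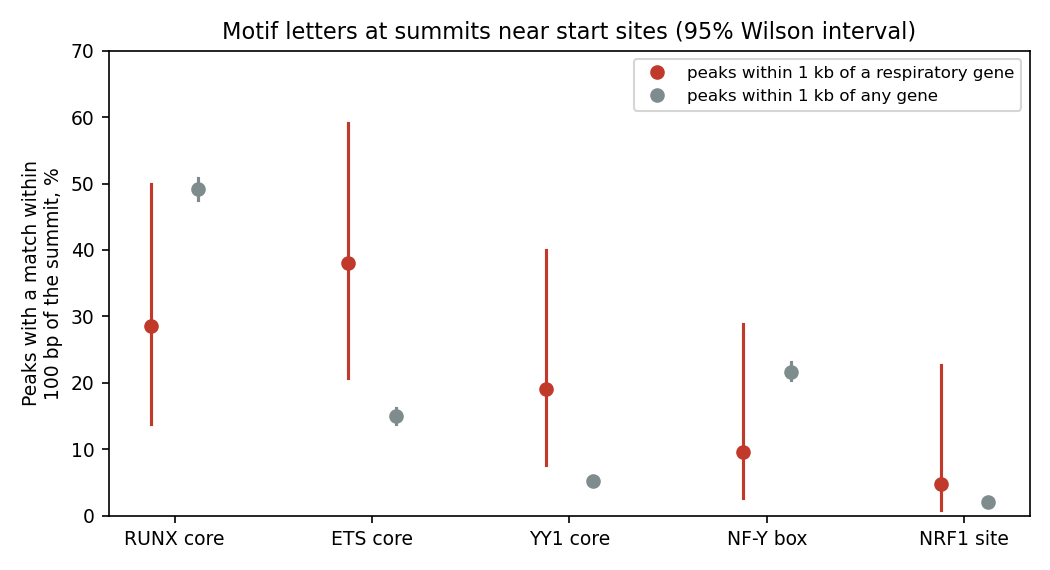
Percent of peaks within 1 kb of a TSS with each motif within 100 bp of the summit, for 21 peaks at respiratory genes (red) and 3596 at any gene (grey); bars are 95% Wilson intervals, and the NF-Y box is the CCAAT box. The ETS core stands at 38.1% against 15.0%, and the RUNX core at 28.6% against 49.2%, a share that its interval contains.

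The same letters were counted in the promoters of all 88 genes, with and without a peak. From 250 bases before to 50 after the outermost TSS, 17 of the 88 genes held an ETS core (19.3%, 12.4 to 28.8), beside 11.1% of all genes. It was in 5 of 22 genes with a peak (22.7%), beside 18.9% of all genes with a peak, and in 12 of 66 without. NRF1 sites were in 8 of 88 (9.09%, 4.68 to 16.9), beside 2.18% of all genes. They were in 1 of 22 genes with a peak (4.55%, 0.807 to 21.8) and in 7 of 66 without (10.6%, 5.23 to 20.3). The first interval contained the 3.36% of all genes with a peak. YY1 cores were in 11 (12.5%, 7.13 to 21.0), beside 6.74%, and CCAAT boxes in 33 (37.5%), beside 37.7%. The RUNX core was in 7 of 22 promoters with a peak (31.8%, 16.4 to 52.7) and 10 of 66 without (15.2%, 8.44 to 25.7), with overlapping intervals. The shares were 27.1% for all genes with a peak, inside the first interval, and 21.7% for all genes.

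CpG content and promoter layout were measured for the same genes. The ratio of observed to expected CpG around the TSS had a median of 0.756 for the 22 genes with a peak, 0.710 for the 66 without, 0.748 for all genes with a peak and 0.565 for all genes. A start site of another gene on the opposite strand within 1 kb, pointing away, was found for 23 of 88 members (26.1%, 18.1 to 36.2) beside 9.74% of all genes. Peaks were at 6 of these 23 (26.1%, 12.5 to 46.5) and at 16 of the other 65 (24.6%, 15.8 to 36.3). Over all genes the shares were 40.6% and 20.3%, inside the respective intervals. The 6 were Cox4i1 and Cox4nb (178 bp apart), Ndufa2 with Ik (108 bp), Ndufb3 with Fam126b (61 bp), Ndufb9 with Tatdn1 (80 bp) and Sdha with Ccdc127 (29 bp). The Ndufa2 summit was 4638 bp from its start and not at the shared promoter. At the other pairs, whose starts were at most 178 bp apart, the peak was not given to one gene rather than the other.

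Of the 66 members without a peak, 25 were counted by name as complex I subunit genes, among them Ndufa3, Ndufa4l2, Ndufa5, Ndufa6, Ndufa7, Ndufa8, Ndufa10, Ndufa11, Ndufa12, Ndufab1, Ndufb2, Ndufb4, Ndufb5, Ndufb6, Ndufb8, Ndufc1, Ndufc2, Ndufs1, Ndufs3, Ndufs4, Ndufs6, Ndufv1, Ndufv2 and Ndufv3. The assembly factor genes Ndufaf1 to Ndufaf4 and all 8 complex III genes were among them. In complex IV, Cox5b, Cox6a1, Cox6c and Cox8a had none, beside the 7 tissue isoforms. In ATP synthase, Atp5b, Atp5c1, Atp5d, Atp5e, Atp5f1, Atp5g3, Atp5h, Atp5j, Atp5j2, Atp5k, Atp5l and Atp5o had none. Atp5s, Atp5l-ps1 and Cox7a2l completed the list. A missing peak means that none passed the authors' threshold at this depth, and does not show that Runx3 was absent.

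The distance from the closest TSS to the nearest summit had a median of 29.2 kb over all 88 members and 43.5 kb over all genes. Over the 66 members without a peak it was 62.1 kb, from 5.45 to 613 kb, and over all genes without a peak 74.97 kb. There were 7 members between 5 and 10 kb, 22 between 10 and 50 kb and 37 beyond 50 kb. The 8 complex III members do not include Cyc1, a cytochrome of that complex outside the name rule, which had a peak. Their nearest summits were at 7.79 kb for Uqcr11, 60.2 kb for Uqcrfs1, 73.2 kb for Uqcr10 and 79.3 kb for Uqcrq. They were at 80.7 kb for Uqcrc1, 90.7 kb for Uqcrh, 283 kb for Uqcrc2 and 470 kb for Uqcrb. All but Uqcr11 were thus farther than 50 kb from any summit.

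Around the 5 kb limit, Ndufb10 (4.40 kb) and Ndufa2 (4.64 kb) were just inside. Those just outside included Atp5e (5.45 kb from a peak of fold 9.97), Ndufa6 (5.87 kb, fold 11.2), Ndufb8 (7.31 kb, fold 5.52), Cox6a1 (7.74 kb, fold 6.51), Uqcr11 (7.79 kb, fold 12.9) and Cox8a (9.14 kb, fold 8.22). Several of these outer peaks lay at the start of another gene: 99 bp from Hif1an for Ndufb8, 13 bp from Triap1 for Cox6a1 and 385 bp from Mbd3 for Uqcr11.

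**Figure D5:**
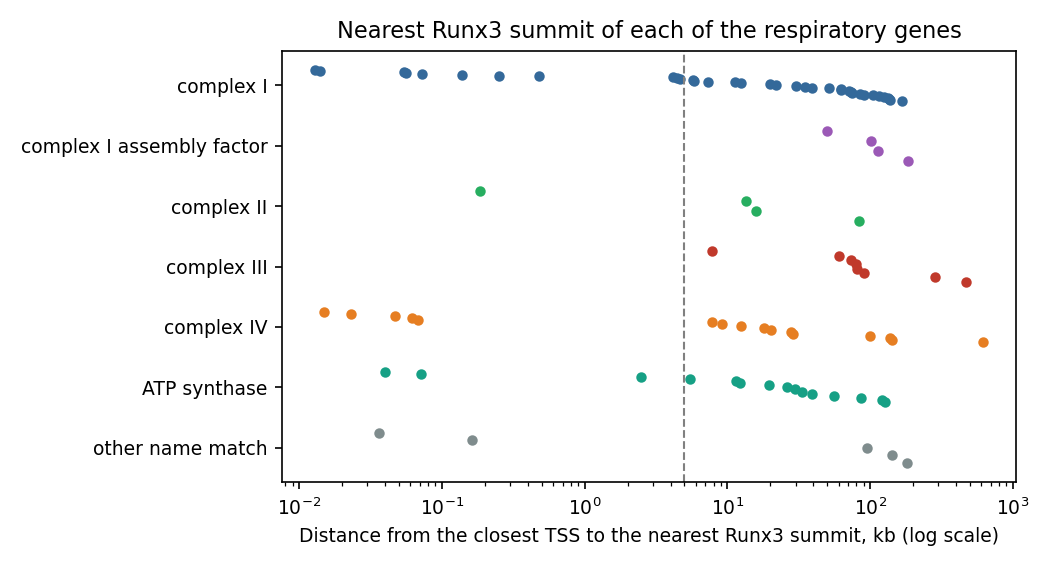
Distance in kb, on a log scale, from the closest TSS of each of the 88 genes to the nearest Runx3 summit, by complex, 1 point per gene; the dashed line marks 5 kb. None of the complex III members lies left of the line, and their points run from 7.79 kb to 470 kb.

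Other genes of the pathway were read from a list of regulators, assembly factors, electron carriers and inhibitors outside the name rule. Of 56 listed symbols, 44 were found in the annotation and 17 of these had a peak within 5 kb (38.6%), beside 22.3% of all genes. The share was 8 of 13 for regulators of respiratory gene expression, 0 of 5 for complex I assembly factors, 2 of 12 for those of complex IV, 5 of 9 for those of complexes II, III and V, and 2 of 5 for further subunits, electron carriers and inhibitors. The list was drawn up with earlier results known.

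The highest was Gabpb1, a partner subunit of the ETS factor GABP, with a peak of fold 20.3 on chromosome 2 from 126500970 to 126501666, 697 bp wide, with its summit 221 bp from the TSS. Gabpa, the DNA-binding subunit, had its nearest summit at 20.2 kb. Nrf1, a regulator of many respiratory promoters, had a pair of peaks, the stronger of fold 11.2. Taco1, an activator of translation of a complex IV subunit, had a fold of 11.2, Sdhaf1, an assembly factor of complex II, 10.7, and Ppargc1b, a coactivator of mitochondrial genes, 9.55. Tfam, which packages mitochondrial DNA, had its nearest summit at 52.9 kb. Cytochrome c itself (Cycs) had a peak of fold 8.39, and Cyc1, the cytochrome of complex III outside the name rule, one of 6.39, where the 8 named complex III genes had none.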

How the data were processed

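Runx3 IP (3 libraries) and NIS IP (2 libraries) of D1 cells were grouped by their labels. Cells were fixed in 1% formaldehyde. Base calls came from CASAVA 1.8, reads of 38 bp were aligned to mm9 with Bowtie 1, and the authors called peaks with MACS2 2.0.10 (q cutoff 0.05, fragment length 119 bp) on pooled tags, keeping 1 tag per position. The labels speak of replicate experiments in smaller number than the Runx3 libraries. The deposited pileup is a signal, Runx3 fragments at the summit scaled to the depth of NIS, where 1 fragment is 0.569, and fragments were recovered within 0.00872 of a whole number. The deposited fold is a ratio, pileup plus 1 over NIS background plus 1. The −log10 q values that the authors deposited had an unreadable header and were recognised by their place in the table. The −log10 p values were not used. Removing duplicates limits summit heights, unique alignment leaves repeats without peaks, and a high local background lowers the fold.

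Summits were joined to the TSS of each protein-coding transcript of GENCODE vM1 (NCBIM37, equal to mm9) within 5 kb, after gene models of 1 name were merged. Motifs were searched on both strands within 100 bp of summits. Shares carry 95% Wilson intervals and fragments exact Poisson intervals, and neither covers replicate error. Fold intervals carry the error of the Runx3 fragments only and take the NIS background as exact. Counting was tested on simulated data. Scripts ran in Python 3.11.15 with pysam 0.24.0, pandas 2.3.3, SciPy 1.17.1, NumPy 2.4.6 and matplotlib 3.10.9. Members and lists were chosen with earlier results of these data known. By rule, full values were given for up to 25 members with the highest fold, each member with several peaks and the strongest of each complex, and other pathway genes by the 5 highest folds. Cycs, Cyc1, Gabpa and Tfam, the ETS windows and the 30-base UTR windows were chosen after their values were seen. Alternatives covered distance, peak threshold, fold, TSS choice, nearest gene, motif window and membership. No column of per-sample values was present. Values of 1 member are not reported here.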

Additional observations from a re-analysis of the deposited data

How the results depend on the processing

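Of 43 alternatives, 36 left the value within the limits set for it and 7 moved it. Those that left out chromosome 5 from 110 Mb could change no value, since no peak near a member lies there. The limits were wide: a core share of 26.9% beside 42.3%, and 29 members beside 22, counted as unmoved. Keeping only peaks with a fold of 10 or more left 6 members with a peak and 6 peaks, with a RUNX core at 83.3% of them, 33.3% within 1 kb of a member's TSS and 50% nearest to a member. Keeping only peaks with a RUNX core left 10 members and 11 peaks. Beside these, all genes had 6.25% with a peak of fold 10 or more (members 6.82%) and 13.5% with a core peak (members 11.4%). The number of members with a peak was 18 at 1 kb and 29 at 10 kb. It was 16 with −log10 q limited to at least 5, and 17 where the nearest TSS had to be a member's. At 10 kb the share of members was 32.95%, beside 27.73% of all genes. With the limit on −log10 q it was 18.18%, beside 17.99% of all genes. The share with a core ran from 26.9% to 57.9% over the alternatives other than fold, and the median fold from 6.71 to 8.99.

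No paired analysis was possible because the deposited list holds 1 pooled comparison and no values per library, and leaving out single libraries was not run for the same reason. Depth limits the list to summits of at least 8 fragments, and a weaker summit near a member does not appear in it. A motif match depends on the exact letters searched.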

Other observations

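The X-linked respiratory genes lay outside the autosomal rule. Ndufa1, an accessory subunit of complex I, had its nearest summit 12.03 kb from its closest TSS. The distance was 119.4 kb for Cox7b, a subunit of complex IV, and 262 kb for Ndufb11, of complex I. None of these 3 genes had a summit within 5 kb.

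Strong peaks also lay at a distance from members that carried none, chosen here after their values were seen. The nearest summit to Ndufab1, the mitochondrial acyl carrier protein that is also a complex I subunit, was 30.1 kb away with a fold of 26.3, and was closest to Ubfd1, at 4249 bp. The nearest to Atp5j, which encodes a stalk subunit of ATP synthase and starts head to head with Gabpa, was 19.5 kb away with a fold of 18.9. Both folds exceeded the 15.5 of Ndufs7, the highest within 5 kb of a member. Which gene, if any, such a peak serves was not tested.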
